A study of Mus musculus with 4 samples.

Results

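Mitochondrial DNA codes for 13 proteins of the respiratory chain. In tibialis anterior muscle of an Nf1-KO and a Het group, 4 of their transcripts were measured under a gene name. They are Atpase6, Cox2, Cytb and mt-Nd4, taken by name from the 32868 named genes of the series, and for Atpase6, which has 2 rows, the row with the higher mean was kept. The other 9 protein genes and the 2 ribosomal RNAs of the mitochondrial genome were not analysed here. The tibialis anterior, a shin muscle made mostly of fast fibres, came from C57BL/6 mice at postnatal day 21. The Nf1-KO group is labelled Nf1flox/flox/Myf5+ and the Het group Nf1flox/+/Myf5+, with 2 libraries each. The labels do not spell out Myf5+, which in crosses with floxed alleles usually denotes Cre recombinase expressed from Myf5, a gene of muscle precursors. Both groups carry this and at least a single floxed Nf1 allele, and no group without them was analysed here. Whether the libraries came from separate animals is not given in the labels, so p-values measure the spread between these samples, which may be technical.

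The mitochondrial genome is a small circle whose genes are transcribed as long RNAs covering many genes at once. These are then cut into shorter messages, mostly at the transfer RNAs that lie between many of the genes. Its proteins are core subunits of respiratory complexes I, III, IV and V, and each is assembled with many subunits that are coded in the nucleus and imported. Oxidative muscle fibres hold more mitochondria than glycolytic ones, and the series concerns muscle growth and metabolism after loss of Nf1, the gene of the Ras inhibitor neurofibromin. The comparison below asks whether the transcripts of the mitochondrial genome moved with those nuclear partners.

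Atpase6 is the row for the gene now called mt-Atp6, which codes for subunit a of ATP synthase (complex V), the membrane channel through which protons drive ATP formation. In GENCODE M21 (mouse build GRCm38) it lies on the mitochondrial chromosome from 7927 to 8607, plus strand, and its start lies inside the end of mt-Atp8. Cox2 (mt-Co2, 7013 to 7696, plus strand) codes for the subunit of cytochrome c oxidase (complex IV) that receives electrons from cytochrome c. Cytb (mt-Cytb, 14145 to 15288, plus strand) codes for cytochrome b, the subunit of complex III that oxidises ubiquinol. mt-Nd4 (10167 to 11544, plus strand) codes for a membrane subunit of NADH dehydrogenase (complex I) that takes part in proton pumping, and its start lies inside the end of mt-Nd4l. All 4 are single-exon coding genes. The name Cox2 is also an older synonym of the cyclooxygenase gene Ptgs2, which has a row of its own in the files at 0, 0.01, 0.03 and 0 RPKM. RPKM, the unit of all levels here, is a read count divided by gene length and library size, so levels can be compared between genes as far as the authors' gene lengths are right.

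The stretches where the coding genes overlap are shown because reads in them belong to 2 genes and cannot be assigned to either alone. Capitals mark the bases that belong to both genes, 43 for mt-Atp8 and mt-Atp6 and 7 for mt-Nd4l and mt-Nd4, with 20 bases on each side in lower case, from GENCODE M21 transcripts. The mt-Atp8 and mt-Atp6 window spans 7907 to 7989 and the mt-Nd4l and mt-Nd4 window 10147 to 10193 of the mitochondrial chromosome.
mt-Atp8/mt-Atp6: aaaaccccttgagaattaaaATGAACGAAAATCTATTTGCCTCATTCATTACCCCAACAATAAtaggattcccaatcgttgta
mt-Nd4l/mt-Nd4: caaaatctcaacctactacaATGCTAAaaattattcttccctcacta

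The files do not give the gene lengths behind the RPKM, but these can be worked out from the authors' deposited comparison table, whose mean normalised read count per gene can be divided by the mean RPKM. Over 390 genes with 1 annotated transcript and a mean of at least 5 RPKM, 1 RPKM stood for a median of 47.1 normalised reads per kilobase (quartiles 44.7 and 47.7). Cox2 then had an implied length of 695 bases, against 684 for its coding gene. For Atpase6 the implied length was 848 bases, which is longer than mt-Atp6 (681 bases) and near the 842 bases from the start of mt-Atp8 to the end of mt-Atp6. That of mt-Nd4 was 1679 bases, against 1378 for the gene itself and 1668 from the start of mt-Nd4l to its end. Cytb had 2903 bases, 2.54 times its coding gene. If that reflects a longer gene model, the RPKM of Cytb is not that of cytochrome b alone, and whether the count and RPKM tables treated reads in the same way was not tested. The positions the models cover are not given in the sources used here.

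**Figure D1:**
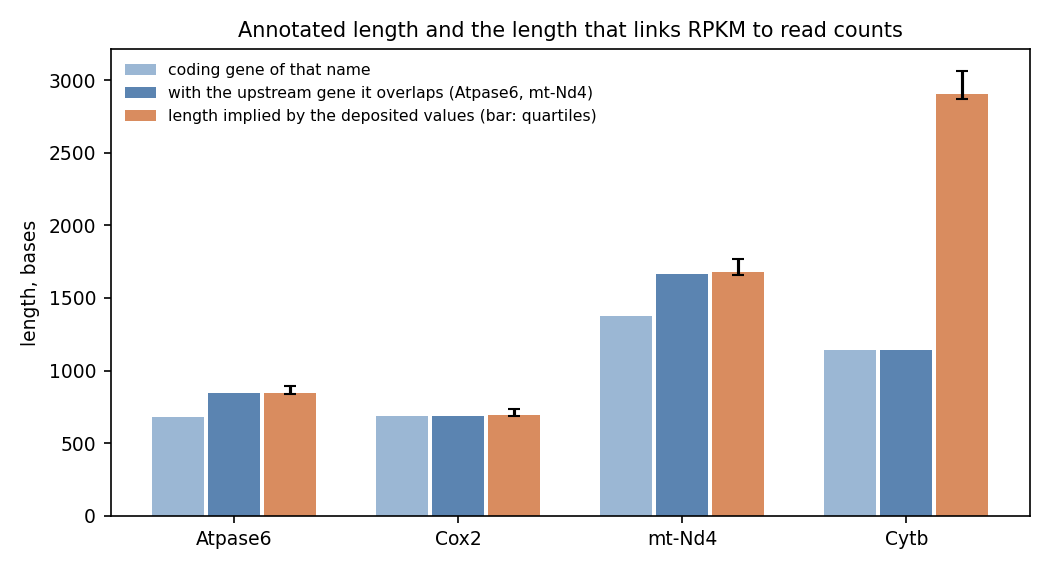
Length in bases of each transcript: the coding gene of that name, the span with the upstream gene it overlaps, and the length implied by the deposited read counts and RPKM (error bars, quartiles of the calibration over 390 genes). The implied lengths of Atpase6 and mt-Nd4 sit at the joint span, 848 against 842 and 1679 against 1668 bases, and that of Cytb, 2903 bases, is well above its coding gene.

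Copies of mitochondrial DNA also sit in nuclear chromosomes, and reads from identical stretches cannot be told apart. Among annotated GENCODE M21 transcripts outside the mitochondrial chromosome, Gm10925 (chromosome 1, 24613974 to 24614651, minus strand) is identical to mt-Atp6 over 678 bases. Gm28661 (chromosome 1, 24614885 to 24615565, minus strand) matches mt-Co2 in the same way over 681 bases. Gm28439 (chromosome 1, 24611535 to 24612410, minus strand) is identical to mt-Nd4 over 876 bases, 63.6% of that gene. Cytb has no such copy in this set: its closest match, Gm11410 (chromosome 4, 80003989 to 80005131, plus strand), differs at 81 of 1142 aligned bases. RefSeq (GRCm38.p6) lists the name Atpase6 as a synonym of Gm10925, and the 2 Atpase6 rows differed by at most 0.110% in any library, so which of them stands for the mitochondrial copy cannot be told. How the counting assigned reads that match more than 1 place is not given in the sources used here, and the RPKM of Atpase6, Cox2 and mt-Nd4 are uncertain to that extent.

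The 90 bases at the start of the mt-Cytb alignment are shown with those of its nuclear copy, followed by the start of mt-Co2, which is letter for letter the start of Gm28661. Capitals mark the 5 bases of the window at which mt-Cytb (14146 to 14235) and Gm11410 (chromosome 4, 80003990 to 80004079) differ, and the mt-Co2 window (7013 to 7102) has 0 differences.
mt-Cytb: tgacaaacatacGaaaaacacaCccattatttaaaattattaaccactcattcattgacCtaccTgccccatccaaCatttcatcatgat
Gm11410: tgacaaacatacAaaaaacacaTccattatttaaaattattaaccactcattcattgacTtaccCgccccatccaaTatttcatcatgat
mt-Co2: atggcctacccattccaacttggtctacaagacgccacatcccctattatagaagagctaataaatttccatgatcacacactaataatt

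The depth of the libraries was estimated from the steps of low values in short genes. It was 36500000 and 58100000 reads in Het and 47000000 and 51000000 reads in Nf1-KO, and did not separate the groups. Nf1, the targeted gene, was 1.09 and 1.01 RPKM in Het and 0.89 and 0.85 RPKM in Nf1-KO. Its log2 fold change was -0.18 (standard error 0.057, limma adjusted p 0.041), and values as deposited gave -0.13 (limma adjusted p 0.094). The authors' deposited table gave -0.38 (adjusted p 0.0026 in that table). The 1 added to each value before the log understates changes at this level. All 6 markers of skeletal myofibres were abundant and lower in Nf1-KO, summing to 49533 and 49644 RPKM in Het against 38221 and 37985 RPKM in Nf1-KO. Summed levels of the 6 Schwann cell, 6 immune cell and 4 fibroblast markers were 10.8 to 10.83, 8.63 to 8.96 and 70.2 to 72.4 RPKM in Het and 24.4 to 26.3, 27.5 to 27.6 and 107.6 to 108 RPKM in Nf1-KO. The 6 adipocyte markers summed to 8.29 to 9.47 RPKM in Het and 20.02 to 20.6 RPKM in Nf1-KO. Ucp1, the defining gene of brown fat, was listed at 0 in all 4 libraries, as were Emr1, Myl7 and 3 of 5 blood markers. The 3 brown adipocyte markers, Ucp1 included, still summed to at most 1.29 RPKM in Het and at least 2.43 RPKM in Nf1-KO. Only 1 of them was tested, and it was called higher. The 5 endothelial markers summed to 76.0 to 76.4 and 80.9 to 82.0 RPKM in that order, with 2 called higher and 2 lower, the 4 cardiac muscle markers to 2.46 to 2.55 and 7.12 to 7.70 RPKM, and the 4 satellite cell markers to 1.78 to 1.82 and 2.54 to 2.59 RPKM. The 4 genes that mark fibre types, summed, were at 9570 to 9930 RPKM in Het and 7902 to 8073 RPKM in Nf1-KO, although 2 of them were called higher and 1 lower. The 1 called lower, Myh4, is also among the 6 myofibre markers. The part of these cell types and fibre types in the values below was not tested, and in bulk muscle fewer cells of a type and less RNA per cell cannot be told apart.

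Mitochondrial transcripts were among the most abundant RNAs of the muscle, and in the values as deposited the Nf1-KO libraries lay within the range of the Het libraries. Atpase6 had 39087 and 40473 RPKM in Het, and its Nf1-KO libraries had 39321 and 39236 RPKM. Cox2 was at 30538 and 31525 RPKM in Het and 31348 and 31524 RPKM in Nf1-KO. mt-Nd4 was at 19261 and 20349 RPKM in Het and 19435 and 19713 RPKM in Nf1-KO. For all of these, Het replicate 1 was the lowest library and Het replicate 2 the highest, with the Nf1-KO libraries between them. Cytb followed the same order, with 8888 and 9240 RPKM in Het and 9116 and 9044 RPKM in Nf1-KO. Estimated depth was likewise lowest in Het replicate 1 and highest in Het replicate 2, and its part in these levels was not tested. By mean level Atpase6, Cox2, mt-Nd4 and Cytb ranked 2, 3, 4 and 9 among all named genes.

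The group means of the deposited RPKM differed by about the spread of Het or less. Means of Atpase6 were 39780 ± 980 RPKM for Het and 39278 ± 60.3 RPKM for Nf1-KO (SD, n = 2 each), a difference of -1.26%. Cox2 was at 31032 ± 698 and 31436 ± 124 RPKM, a difference of 1.301%. For Cytb the levels were 9064 ± 248 and 9080 ± 51.1 RPKM, and for mt-Nd4 19805 ± 769 and 19574 ± 197 RPKM. The Het libraries spread more than the Nf1-KO libraries in each of the 4 transcripts: coefficients of variation were 2.25% to 3.89% in Het and 0.154% to 1.01% in Nf1-KO. Among the 404 genes of at least 100 RPKM the median was 1.03% in Het and 0.936% in Nf1-KO. By the deposited values, 77.3% of the 10690 tested genes had groups that did not overlap, and so did 0 of the 4 mitochondrial transcripts.

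**Figure D2:**
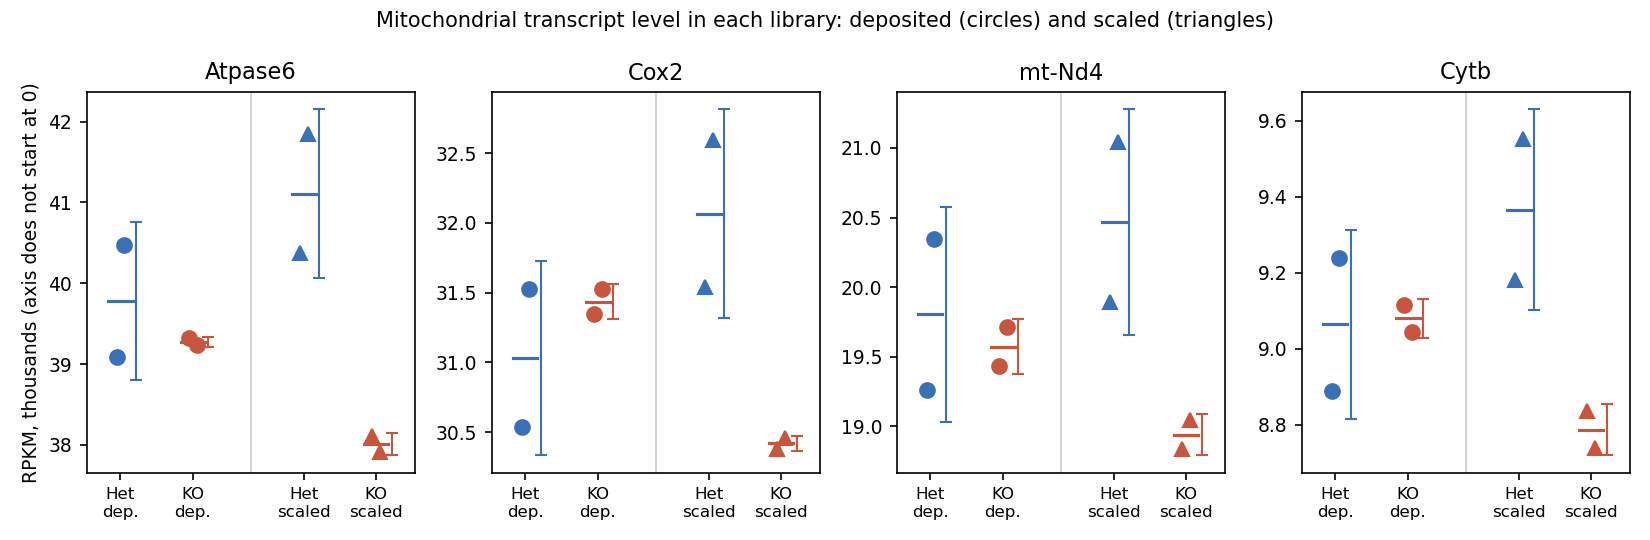
Level of each mitochondrial transcript in each library, in RPKM, as deposited (circles) and after scaling between libraries (triangles), with the group mean (line) and SD (bar beside it, n = 2). As deposited, the Nf1-KO libraries sit between the Het libraries in each panel, and after scaling they sit below both.

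Comparison over all genes first scales the libraries to each other, here by a trimmed mean of log ratios with factors of 0.968 and 0.967 for Het and 1.03 and 1.03 for Nf1-KO. After this, each mitochondrial transcript was slightly lower in Nf1-KO and passed the test. None passed in the values as deposited, where the fold changes of Cox2 and Cytb had the opposite sign. With scaling, the means of Atpase6 were 41108 ± 1045 RPKM for Het and 38010 ± 140 RPKM for Nf1-KO (SD, n = 2 each), a difference of -7.53%. The differences were -5.135% for Cox2, -6.19% for Cytb and -7.45% for mt-Nd4. The log2 fold change of Atpase6 was -0.11 (95% interval -0.16 to -0.066), with an adjusted p from limma of 0.0038. Cox2 had a log2 fold change of -0.076 (-0.12 to -0.031; limma adjusted p 0.015) and Cytb one of -0.092 (-0.14 to -0.040; limma adjusted p 0.013). For mt-Nd4 it was -0.11 (-0.18 to -0.047; limma adjusted p 0.014). Both Nf1-KO libraries were below both Het libraries in all 4, where 76.3% of the tested genes did not overlap in either direction. The test called 50.3% of all 10690 tested genes, 24.9% higher and 25.5% lower, so that 4 calls of 4 stand against a background in which a call was common. Among the 404 genes of at least 100 RPKM, 90.8% were called, 252 higher and 115 lower, so a call was the rule at high levels. In 69.3% of the tested genes the log2 fold change was above that of Atpase6, and in 63.6% it was above that of Cox2.

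Without scaling, the log2 fold changes were -0.018 for Atpase6 (95% interval -0.064 to 0.028; limma adjusted p 0.455) and 0.019 for Cox2 (-0.025 to 0.063; limma adjusted p 0.417). For Cytb it was 0.0028 (-0.048 to 0.054; limma adjusted p 0.918) and for mt-Nd4 -0.016 (-0.082 to 0.049; limma adjusted p 0.634). The test then called 52.8% of all genes, and 66.6% of its calls were higher in Nf1-KO, against 49.4% with scaling. For all tested genes the median was 0.070 as deposited and 0.00038 after scaling. Scaling by the median of ratios, or without the 20 most abundant genes, kept all 4 transcripts lower and called. The authors' deposited table also gave lower values in Nf1-KO, with log2 fold changes of -0.13 for Atpase6, -0.088 for Cox2, -0.10 for Cytb and -0.12 for mt-Nd4. Adjusted p in the authors' deposited table was 4.2e-11, 3.9e-06, 2.7e-07 and 0.011 in that order, where that table called 31.7% of its genes and 16.6% as lower. Across these scalings the highest upper bound of a 95% interval was 0.063, for Cox2 as deposited.

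With scaling, the calls of Cox2, Cytb and mt-Nd4 also ended when Nf1-KO replicate 1 was left out (log2 fold changes -0.064, -0.090 and -0.093; limma adjusted p 0.123, 0.052 and 0.081) or Nf1-KO replicate 2 (-0.068, -0.074 and -0.11; limma adjusted p 0.108, 0.095 and 0.054), while that of Atpase6 held. All 4 calls ended without a variance trend (limma adjusted p 0.065 to 0.161) and with no filter on low genes (limma adjusted p 0.064 to 0.114).

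**Figure D3:**
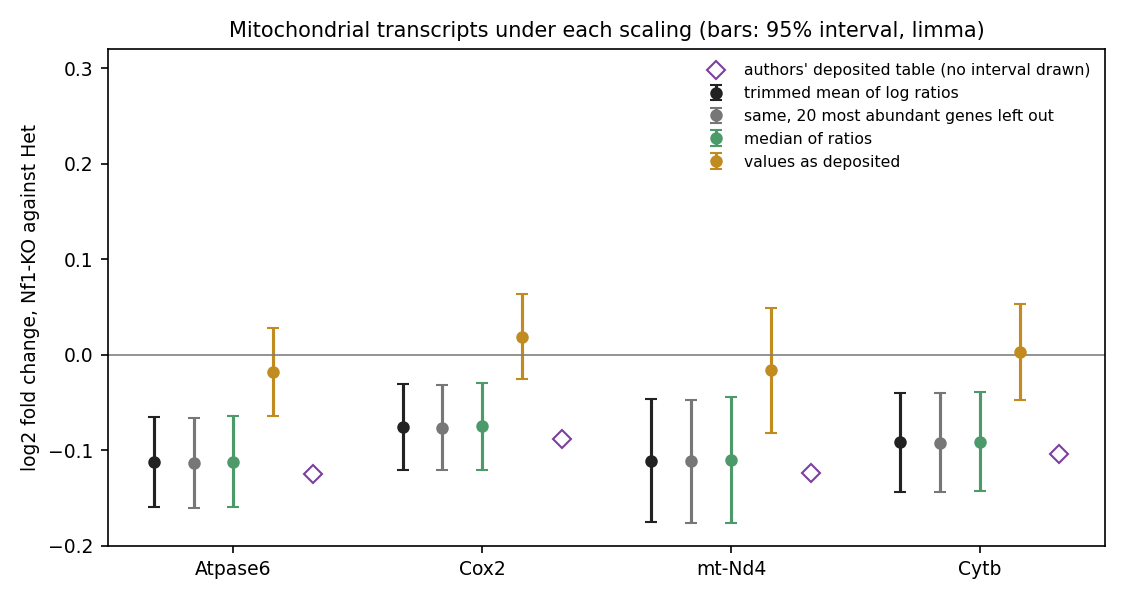
Log2 fold change of each mitochondrial transcript, Nf1-KO against Het, under each way of scaling the libraries, with the 95% interval from limma, and the value in the authors' deposited table (open diamonds). The 3 scaled fits lie below 0 for each transcript, and the values as deposited lie between -0.018 and 0.019.

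The 4 transcripts were also taken as a share of summed RPKM, which no scaling factor changes. The sum ran over the named genes, with 1 row kept per name. Together the 4 transcripts made up 19.8% and 20.5% in the Het libraries and 19.6% in each Nf1-KO library. The difference was -0.54 percentage points (exact permutation test, two-sided p 0.333, the smallest that 2 libraries against 2 allow). It was -0.85 points without Het replicate 1 and -0.23 points without Het replicate 2. Set against the sum of the genes outside the 20 most abundant, which leaves the 4 transcripts themselves out, the change was -3.79 points. That is a ratio to other genes and not a share, so its size cannot be set beside -0.54. In the authors' deposited table the 4 transcripts held 10.9% of the summed mean normalised counts. Their means ran from 1022700 normalised reads for Cox2 to 1580200 for Atpase6. That sum also holds the second Atpase6 row (3.19%), and counts are not divided by gene length, so 10.9% and the shares above are not alike.

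The levels ran in the order Atpase6, Cox2, mt-Nd4 and Cytb in every library. On the log2(RPKM + 1) scale, neighbours in that order were apart by 0.36 ± 0.0031 (SD, n = 2; Atpase6 over Cox2), 0.65 ± 0.024 (Cox2 over mt-Nd4) and 1.13 ± 0.017 (mt-Nd4 over Cytb) in Het, each far beyond the spread. The last gap depended on the length used: when the authors' mean normalised counts were divided by the length of the coding gene alone, mt-Nd4 and Cytb held 1130810 and 1085130 reads per kilobase, against 1495170 for Cox2 and 2320410 for Atpase6. That figure overstates a gene as far as its reads lie in a neighbour's sequence.

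Proportions among the transcripts moved by at most 0.037 on the log2 scale between the groups. The log2 difference of Atpase6 against Cox2, the pair with the largest change over all libraries, was 0.356 and 0.360 in Het and 0.327 and 0.316 in Nf1-KO. Cox2 against mt-Nd4 was next, at 0.665 and 0.632 in Het and 0.690 and 0.677 in Nf1-KO. Differences between the groups were -0.037 and 0.035 on the log2 scale for these pairs, and their order turned without Het replicate 1 (-0.039 and 0.052) or Nf1-KO replicate 2 (-0.031 and 0.041). Without Het replicate 2 the change of Cox2 against mt-Nd4 was 0.019. Groups did not overlap in 4 of the 6 pairs, which share the same 4 transcripts. In levels of single genes, 77.3% of all tested genes did not overlap by the deposited values. The like share for pairs of genes was not worked out. Atpase6 against mt-Nd4 changed by -0.0017 and its groups overlapped. By exact permutation tests no pair could pass (two-sided p 0.333 to 1, adjusted over 6 pairs 0.5 to 1).

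All tested nuclear genes for subunits of complexes III, IV and V, and 32 of the 35 for complex I, were called higher in Nf1-KO, while the mitochondrial transcripts were not. The share of all tested genes called higher was 24.9%. Calls were more common among abundant genes: of the 404 genes of at least 100 RPKM, which include most of these subunits, 252 were called higher and 115 lower. For each library, the mean log2(RPKM + 1) of the tested nuclear subunits of a complex was subtracted from that of its mitochondrial transcript, a difference free of scaling. Atpase6 stood 6.54 and 6.62 log2 units above the mean of 15 nuclear ATP synthase subunits in Het and 6.13 and 6.11 in Nf1-KO. Relative to its partners it was thus 27.4% lower in Nf1-KO, a change of -0.46 on the log2 scale against SDs of 0.056 in Het and 0.016 in Nf1-KO (n = 2 each). With the median of the subunits in place of their mean, this change was -0.30. Cox2 stood 6.57 and 6.61 above 14 nuclear subunits of complex IV in Het and 6.14 and 6.12 in Nf1-KO, a change of -0.46. Against 8 nuclear subunits of complex III, Cytb stood at 4.73 and 4.81 in Het and 4.33 and 4.31 in Nf1-KO, a change of -0.45. mt-Nd4 stood 6.89 and 6.99 above 35 nuclear subunits of complex I in Het and 6.59 and 6.60 in Nf1-KO, a change of -0.35. In each complex both Nf1-KO libraries lay below both Het libraries, and the change was larger than the SD of either group (exact permutation test, two-sided p 0.333 each, the smallest possible). Such separation was common: by deposited levels of single genes, 77.3% of all tested genes did not overlap. The like share for differences from a list mean was not worked out.

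The nuclear side was measured gene by gene in the same fit, with scaling. All 15 nuclear subunits of complex V, all 14 of complex IV and the 8 tested of complex III were called higher, and their median log2 fold changes were 0.38, 0.42 and 0.35. Of 35 tested subunits of complex I, 32 were called higher, 1 was called lower and Ndufa12 and Ndufb4 were not called, with a median of 0.23. The median over all tested genes was 0.00, and over the 404 genes of at least 100 RPKM it was 0.19. Uqcr11 and Ndufs5, the listed subunits that were not tested, were listed at 0 in all libraries. Without scaling, 15, 14, 8 and 34 were called higher, against 35.2% of all tested genes. A nuclear log2 fold change above that of the mitochondrial transcript was found in 15 of 15, 14 of 14, 8 of 8 and 34 of 35 subunits, where 63.6% to 69.3% of all tested genes were above it. The exception was Ndufb5, a membrane-arm subunit of complex I, at 245 and 240 RPKM in Het and 233 and 236 RPKM in Nf1-KO (log2 fold change -0.14; limma adjusted p 0.0013).

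Atp5b, the catalytic beta subunit of ATP synthase and the most abundant of its nuclear genes, rose from 1613 and 1571 RPKM in Het to 2305 and 2284 RPKM in Nf1-KO (log2 fold change 0.43; limma adjusted p 9.0e-06). Atp5l, subunit g of the same enzyme, showed the largest change of that list, from 253 ± 1.15 to 403 ± 14.9 RPKM (SD, n = 2). In complex IV, the muscle isoform Cox6a2 rose from 823 and 829 to 1320 and 1294 RPKM. Cox2, of the same complex, stayed between 30538 and 31525 RPKM in all 4 libraries. Cox8b, another muscle isoform, rose from 482 ± 6.14 to 771 ± 41.7 RPKM. Uqcrfs1, the Rieske iron-sulphur protein that takes electrons from ubiquinol in complex III, rose from 318 and 304 to 462 and 468 RPKM (log2 fold change 0.49; limma adjusted p 2.0e-05). Uqcrq, the most abundant nuclear gene of complex III, rose from 544 ± 3.24 to 705 ± 10.6 RPKM. Ndufv1, which binds NADH in complex I, rose from 241 and 238 to 364 and 364 RPKM (log2 fold change 0.51; limma adjusted p 4.0e-06). Ndufb9, the most abundant of complex I, rose from 522 ± 6.29 to 627 ± 8.28 RPKM.

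**Figure D4:**
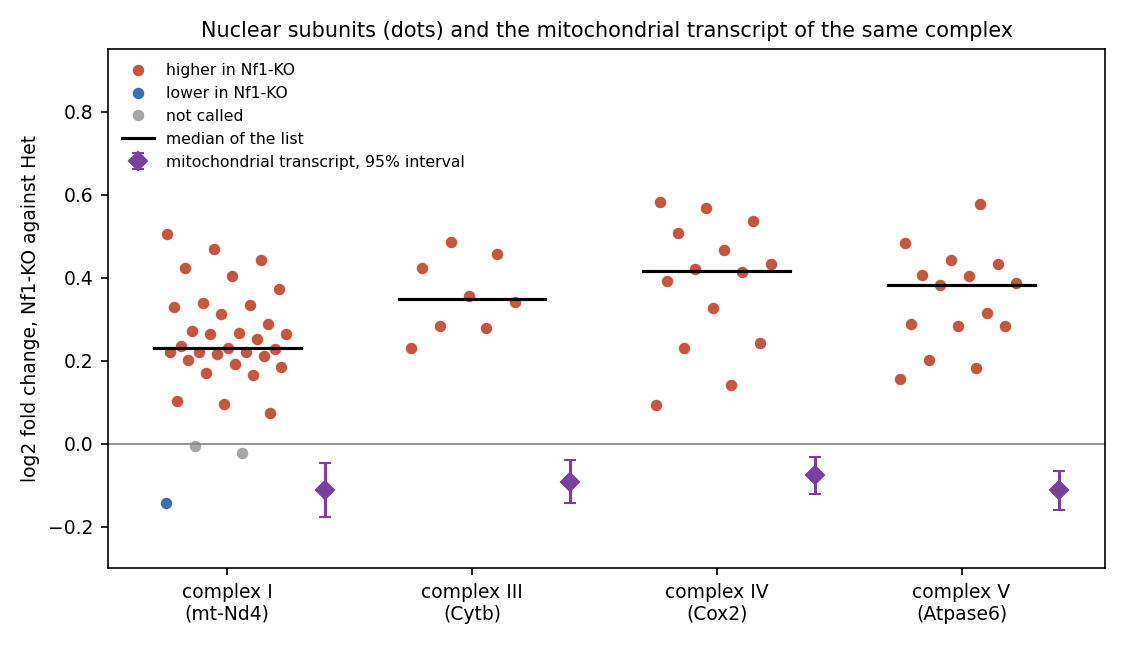
Log2 fold change, Nf1-KO against Het after scaling, of each tested nuclear subunit (dots, coloured by the limma call) of complexes I, III, IV and V, with the list median (line), and of the mitochondrial transcript of the same complex (diamond, 95% interval). List medians lie between 0.23 and 0.42 and the 4 diamonds between -0.11 and -0.08.

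The genes that keep, transcribe and process the mitochondrial genome were called in part, with genes in each direction. Among 15 tested genes for mitochondrial DNA maintenance and transcription, 5 were called higher and 3 lower, and 7 were not called, where 24.9% of all tested genes were called higher and 25.5% lower. The share called in either direction is thus near the 50.3% of all tested genes. The median log2 fold change of the list was 0.10. Tfam, which packages mitochondrial DNA and starts its transcription, was at 10.6 and 10.4 RPKM in Het and 12.03 and 11.9 RPKM in Nf1-KO, with a log2 fold change of 0.08 (limma adjusted p 0.092). Polrmt, the mitochondrial RNA polymerase, fell from 7.70 and 8.46 to 7.11 and 7.36 RPKM (log2 fold change -0.22; limma adjusted p 0.013). Mrpl12, a ribosomal protein that also binds Polrmt, was the most abundant of the list and rose from 103 and 97.4 to 121 and 125 RPKM. Mterf1a, a member of the mitochondrial termination factor family, was at 0.36 and 0.41 RPKM in Het and 0.88 and 0.89 RPKM in Nf1-KO. It is 1 of the 5 called higher, but these levels are near the floor. It reached the 0.5 RPKM needed for the test only in Nf1-KO, so its call is no support for a rise. Top1mt, the mitochondrial topoisomerase, fell from 6.72 ± 0.71 to 5.72 ± 0.78 RPKM (log2 fold change -0.28, limma adjusted p 0.048). Its deposited values overlapped between the groups. As deposited without scaling, 11 of the 15 were called higher and 1 lower, against 35.2% of all tested genes called higher.

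Of 19 tested genes for mitochondrial RNA processing and stability, 6 were called higher and 1 lower, and 12 were not called, against the same 24.9% and 25.5% of all tested genes. The median was 0.06 on the log2 scale. Lrpprc, which binds and stabilises mitochondrial messages together with Slirp, was at 26.2 and 27.4 RPKM in Het and 29.9 and 29.6 RPKM in Nf1-KO (log2 fold change 0.05; limma adjusted p 0.206). Slirp was at 8.28 and 8.82 RPKM in Het and 8.59 and 8.63 RPKM in Nf1-KO (log2 fold change -0.08; limma adjusted p 0.194). Neither passed the test. Hsd17b10, a subunit of the mitochondrial RNase P that frees transfer RNAs, rose from 39.2 and 40.5 to 60.5 and 59.0 RPKM, and 1110008L16Rik, the row for the nuclease subunit of that enzyme, fell from 2.50 and 2.45 to 1.96 and 2.03 RPKM (log2 fold change -0.28; limma adjusted p 0.0050). Grsf1, an RNA-binding protein of mitochondrial RNA granules, rose from 48.8 and 50.5 to 62.1 and 65.3 RPKM. Without scaling 12 were called higher and 1 lower, against 35.2% of all tested genes called higher. With scaling, 4 genes of the list were called without Het replicate 2, and also 4 without Nf1-KO replicate 1.

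Regulators of mitochondrial biogenesis, transcription factors and coactivators of nuclear genes for mitochondrial proteins, had 5 of 12 called higher and 1 lower, so that the share called in either direction was near the 50.3% of all tested genes. Ppara, a receptor for fatty acids, rose most, from 3.71 and 3.97 to 8.73 and 8.57 RPKM (log2 fold change 0.92; limma adjusted p 2.1e-05). Ppargc1a, the coactivator PGC-1 alpha, rose from 5.82 and 6.08 to 8.46 and 8.56 RPKM (log2 fold change 0.37; limma adjusted p 5.8e-04). Esrra, the oestrogen-related receptor alpha and the most abundant of the list, rose from 25.8 ± 0.12 to 33.0 ± 0.39 RPKM (SD, n = 2). Ppargc1b, the related coactivator, was called lower, from 4.78 and 5.36 to 4.64 and 4.71 RPKM (log2 fold change -0.17; limma adjusted p 0.047), but without scaling 8 genes of the list were called higher, against 35.2% of all tested genes, and Ppargc1b was not called lower.

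**Figure D5:**
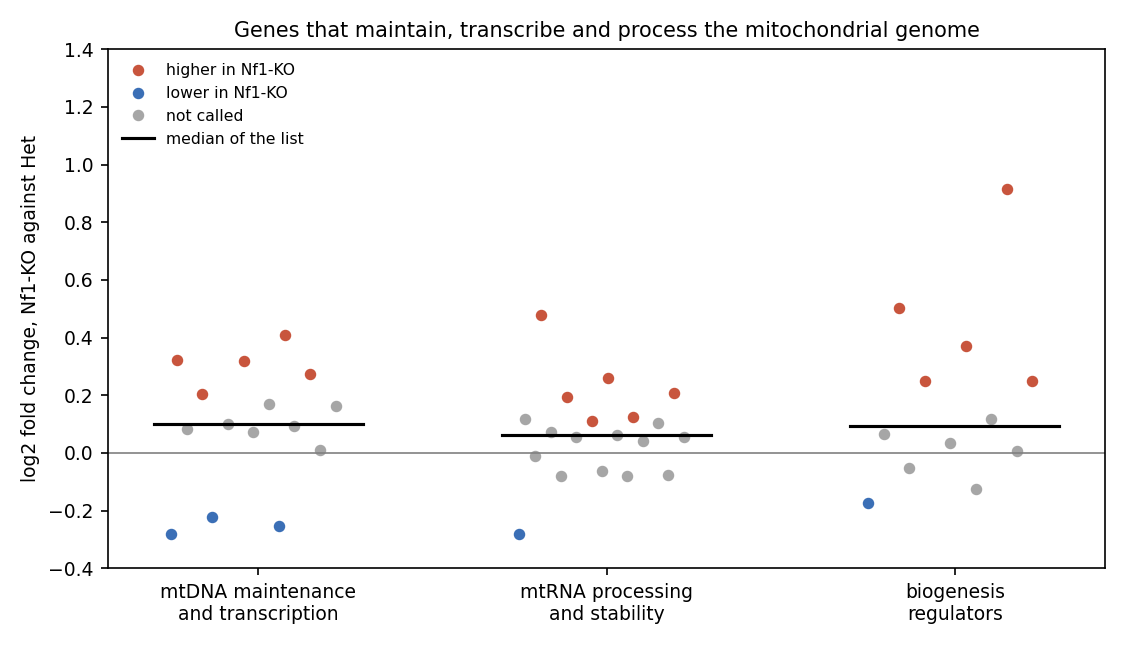
Log2 fold change, Nf1-KO against Het after scaling, of the tested genes of 3 lists that act on the mitochondrial genome or on mitochondrial biogenesis, coloured by the limma call, with the median of each list (line). Medians lie between 0.06 and 0.10, and each list holds genes called in both directions.

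Across the 404 genes of at least 100 RPKM, likeness to each mitochondrial transcript was measured as the Euclidean distance between mean-centred log2 values over the 4 libraries. Cytb and mt-Nd4 were the nearest to Atpase6 (distances 0.022 and 0.027), and Atpase6 and Cytb the nearest to mt-Nd4 (0.027 and 0.034). The third in both cases was 2410127L17Rik (0.032 and 0.040), at 107 ± 2.22 RPKM in Het and 104 ± 0.86 RPKM in Nf1-KO (SD, n = 2). For Cox2 the nearest rows were AK018753_gene and AK220016_gene (0.011 and 0.015), followed by Cytb (0.022). For Cytb they were the same rows (0.021 and 0.021), followed by Atpase6 (0.022). Those rows have no gene symbol, and AK018753_gene was at 7355 ± 122 RPKM in Het and 7422 ± 5.83 RPKM in Nf1-KO. With 4 libraries these distances describe the samples and are no test.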

How the data were processed

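RNA libraries (TruSeq RNA version 2 kit, per the labels' protocols; this kit does not mark strand) for the 4 samples were aligned with STAR 2.4.2a to mm9, per the submitters' processing notes; the counting program, annotation and treatment of multiply matching reads are not given in the sources used here. For each library the authors' deposited table holds 34682 rows with an RPKM of 2 decimals, a unit read from the values. In the authors' deposited comparison table, per the file headers, the signal is a mean of counts divided by size factors, with a log2 fold change and its standard error, a test score, and a p-value and adjusted p-value (DESeq2, per the submitters' processing notes).

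The 33 rows with no gene name were left out and the highest of several rows of 1 name was kept. The test was limma 3.58.1 (R 4.3.3) with a variance trend, run on log2(RPKM + 1) for the 10690 genes that reached 0.5 RPKM in 2 or more libraries, after scaling by a trimmed mean of log ratios (30% of ratios, 5% of abundances), and p-values were adjusted by Benjamini-Hochberg with a threshold of 0.05. The pseudocount understates changes of low genes. The fit was tested on simulated data in which few genes changed, as many higher as lower. It could not test the scaling for data in which 50.3% of genes were called. A value of 0 can be a failed estimate, since 44.7% of rows were at 0 throughout. Positions, names and sequences come from GENCODE M21 (GRCm38), not the authors' build, and copies were searched with blastn 2.17.0. Depth was estimated as the total at which RPKM of genes under 400 bases came closest to whole reads. No batch is labelled, and none could be compared within. Named genes were the 4 transcripts, Nf1, 5 regulators (Tfam, Polrmt, Lrpprc, Slirp, Ppargc1a), and in each list the most abundant gene and the largest called changes. Transcripts and lists were chosen with earlier results of these data known. Alternatives covered scaling, pseudocount, filter, variance trend, replicate block, threshold, copies and each library left out.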

Additional observations from a re-analysis of the deposited data

How the results depend on the processing

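Of 289 values under 17 alternative settings, 258 held in direction and call, or stayed within the spread between replicates or within 1.5 times the count. Most of the 31 that did not hold were log2 fold changes of the 4 transcripts themselves. The rule for counts was loose: 3760 genes called higher as deposited, in place of 2661, still held. With values as deposited, Cox2 and Cytb turned to 0.019 and 0.0028, and Atpase6 and mt-Nd4 were no longer called at -0.018 and -0.016; 13 in place of 7 RNA processing genes were called. With no filter the log2 fold changes were -0.13 for Atpase6, -0.091 for Cox2, -0.11 for Cytb and -0.13 for mt-Nd4, none called. Without a variance trend they were -0.11, -0.076, -0.092 and -0.11, none called. The cause was not tested. At an adjusted p under 0.01, Cox2 (-0.076), Cytb (-0.092) and mt-Nd4 (-0.11) and all but 4 RNA processing genes were not called.

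Leaving out each library in turn gave log2 fold changes from -0.10 to -0.055 for Cox2, from -0.13 to -0.065 for Cytb and from -0.16 to -0.073 for mt-Nd4, and the calls of RNA processing genes from 4 to 6. A lone library was then assumed to vary like the other group. The Atpase6 and mt-Nd4 pair ran from -0.016 to 0.013, turning without Het replicate 1 and without Nf1-KO replicate 2. With the median over subunits in place of the mean, the changes relative to nuclear partners were -0.30 for Atpase6, -0.51 for Cox2 and -0.50 for Cytb. As a percent of the sum of the genes outside the 20 most abundant, the 4 transcripts changed by -3.79 points. This is a ratio to other genes and not the share.

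Libraries of the same number did not deviate together (correlation of deviations across genes -0.018). With the replicate block, 5348 genes were called in place of 5382, and Atpase6 (-0.11), Cox2 (-0.076), Cytb (-0.092) and mt-Nd4 (-0.11) stayed called. Tests on counts were planned but not run, because the files hold RPKM.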
